A study of Oryctolagus cuniculus with 9 samples.

Results

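The genes described here are those of the mitotic spindle, the centromere and the kinesin motors, followed in a cultured smooth muscle line exposed to estradiol. They were chosen by symbol from the count table: every symbol beginning with KIF and a digit, CENP and a letter, or CDCA and a digit, together with a list of named mitotic genes such as PLK1, AURKA and TOP2A. This gave 68 of the 19291 genes in the table, of which 64 had enough counts to be tested. The label of mitotic genes was kept for 48 of the 68. It is loose for the centriole gene CENPJ and for CDCA7 and CDCA7L. The other 20 are kinesins, or the kinesin-binding protein KIF1BP. Most are known mainly for carrying cargo along microtubules or for work in cilia and at interphase centrosomes. KIF2A, of the same family as the spindle kinesin KIF2B, was also placed among the 20. These 20 are described separately, and the 48 are called division genes below. BUB1B and BIRC5, which the selection also names, were not among the symbols of the table.

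mRNA was sequenced from 9 libraries of the line HA-VSMC, 3 of them controls, 3 from cells kept for 48 h with β-estradiol at 50 nM and 3 with β-estradiol at 250 nM. All cells grew in RPMI medium with fetal bovine serum. The labels assign the line to the rabbit, give no tissue of origin, do not say whether controls received the DMSO vehicle, and mark the controls with the treatment tag estrogen and the concentration WT. Lines with the letters HA-VSMC in their name are also known from human aorta, and no check of the species was made, as the reads were not analysed. The labels do not say whether the 3 libraries of a group stem from different cultures. The p-values therefore reflect how much these libraries vary, which may be technical variation alone.

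During mitosis, kinesins and other microtubule proteins build the spindle, and kinetochores assembled on the centromeres attach chromosomes to it. A checkpoint built on the kinases BUB1 and TTK holds CDC20 inactive until every chromosome is attached, while shugoshins protect the cohesin that joins sister centromeres. Once CDC20 activates the anaphase-promoting complex, the sisters separate and ECT2, anillin and the central spindle bundler PRC1 direct cytokinesis. Most of these genes are transcribed in late S, G2 and M phase, so in a culture their RNA is commonly used as a readout of how many cells are dividing. In bulk RNA, fewer cells in mitosis and less RNA per mitotic cell cannot be told apart.

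The libraries held 54718407 to 72274464 count units, about 13679602 to 18068616 fragments. All but 1 of the 10 smooth muscle markers measured were tested. In the controls ACTA2, TPM2, MYL9, CALD1 and SMTN stood at 1322, 994, 538, 415 and 28.6 FPKM. SYNPO2, MYH11, LMOD1 and MYOCD stood at 7.11, 4.65, 0.451 and 0.408 FPKM, and DES was listed at 0 in every library. Endothelial markers summed to 0.552 to 1.15 FPKM over all libraries and 9 genes, and KDR was listed at 0. Epithelial markers, 8 genes, summed to 34.0 to 44.1 FPKM, nearly all of it KRT14, at 38.5 FPKM in the controls. KRT7 stood at 2.16 FPKM there, and EPCAM was at 0. Leukocyte markers, 8 genes, summed to 87.8 to 98.9 FPKM, nearly all of it LCP1, with ITGAM at 0. Fibroblast markers, all 10 in the table, summed to 5839 to 6083 FPKM in the controls. At 50 nM the sum was 6367 to 6701 FPKM and at 250 nM 6467 to 6679 FPKM, higher in every treated library. Nearly all of it was the collagens COL1A1, COL1A2 and COL3A1, at 1933, 2772 and 1163 FPKM in the controls. At 50 nM 7 of the 10 had log2 fold changes above 0. POSTN (-0.51), PDGFRA (-0.03) and LUM (-0.01) were below 0, as were 50.6% of all genes tested. COL1A1 and COL1A2 were called higher at 50 nM (both 0.18, edgeR adjusted p = 0.0260 and 0.0159), where 3.25% of all genes were called. COL3A1 was not called (0.15, edgeR adjusted p = 0.113). At 250 nM only COL1A1 was called (0.22, edgeR adjusted p = 0.0401), where 0.308% of all genes were. The part of the fibroblast marker sum in the results below was not tested. In a principal component analysis of all genes the 50 nM libraries lay far apart on the second component, from -19.59 (replicate 2) to 27.10 (replicate 3). The other libraries lay between -11.17 and 12.51.

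Division genes were expressed over a wide range. FPKM values, which are scaled for gene length, are used here to compare genes. The most abundant division gene in the controls was CDC20, the activator of the anaphase-promoting complex, at 76.1 ± 1.08 FPKM (mean ± SD, n = 3). PRC1 followed at 58.8 ± 1.47 FPKM, CENPU, a subunit of the constitutive centromere network, at 57.4 ± 5.64 FPKM, and cyclin B1 (CCNB1) at 53.0 ± 2.78 FPKM. The means of PRC1 and CCNB1 each lay within the SD of CENPU around its mean, so its place between them is not settled. Near the low end stood CENPT at 1.35 FPKM, CENPL at 1.79 FPKM and the centriole gene CENPJ at 2.30 FPKM. KIF2B, a spindle kinesin, was listed at 0 in every library and was the only division gene not tested. The median of the 47 tested division genes in the controls was 9.76 FPKM, against 9.31 FPKM over all 12324 genes tested.

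At 50 nM estradiol, 8 of the 64 members tested fell against the control and 0 rose. Those that fell encode the cohesion protectors SGO1 and SGO2, the cytokinesis regulator ECT2, the kinetochore kinesin CENPE and the kinesin KIF20B. The others encode the passenger complex subunit CDCA8, the spindle pole protein ASPM and the centromere protein CENPC. The 8 calls are 12.5% of the members tested (edgeR quasi-likelihood test, Benjamini-Hochberg adjusted p under 0.05). Over all genes tested 3.25% were called, 1.70% downward and 1.55% upward. The members were chosen with earlier results of these data known, so the difference between these shares is no independent result. All 8 were division genes, and 0 of the 17 tested transport and other kinesins passed. The median log2 fold change was -0.14 over the 47 division genes, -0.06 over the 17 other kinesins and 0.00 over all genes tested.

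The count depended on single libraries. Leaving out control replicate 3 took it to 2 and leaving out control replicate 2 to 4. Leaving out replicate 1, 2 or 3 of the 50 nM group gave 3, 3 and 13 calls. All of these member calls were downward. Without the same libraries, in that order, the 401 calls over all genes became 187, 255, 213, 211 and 564. SGO2 and ECT2 were called under all 20 alternative settings, including each left-out library, and CENPE under 18 of 20.

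**Figure D1:**
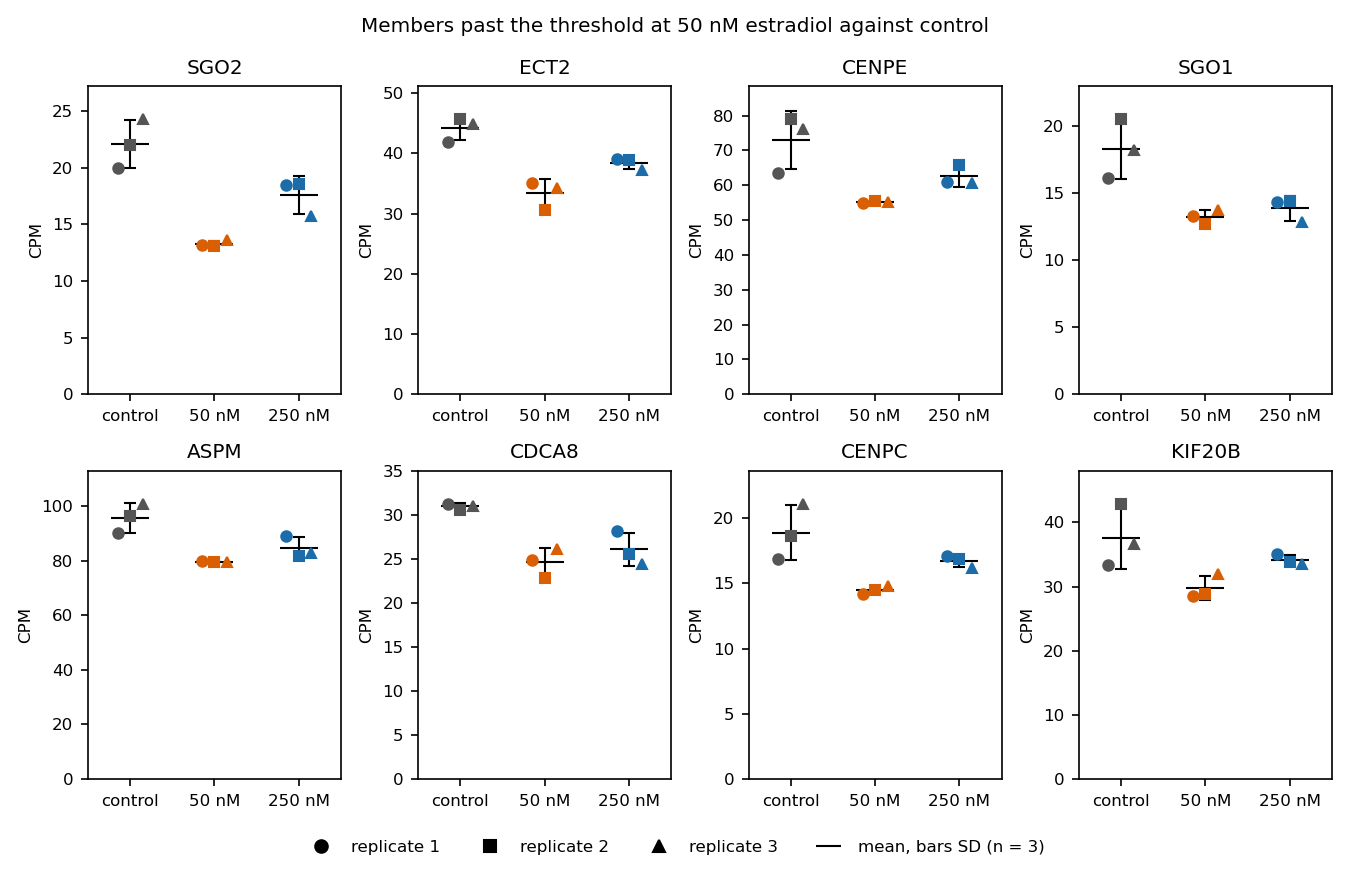
Level of the 8 called genes in each library, in CPM (library-scaled counts, with TMM factors), with the mean and SD of 3 libraries; marker shape gives the replicate number. For all 8 genes every 50 nM library lies below every control; SGO2, with the largest fold change of the 8, runs from 13.1 to 13.6 CPM at 50 nM against 20.0 to 24.3 CPM in the controls.

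Among the genes of checkpoint and cohesion, SGO2 changed most. This shugoshin recruits phosphatase to the centromere, where it shields cohesin until anaphase. SGO2 had 20.0, 22.0 and 24.3 CPM in the controls, 13.2, 13.1 and 13.6 CPM at 50 nM and 18.5, 18.6 and 15.7 CPM at 250 nM. The 3 groups did not overlap, and the 50 nM libraries were the lowest. Its log2 fold change at 50 nM was -0.74 ± 0.09 (estimate ± SE, edgeR adjusted p = 3.49e-04), a 1.66-fold decrease. SGO1, its paralog in the same task, had 16.1, 20.5 and 18.2 CPM in the controls, 13.3, 12.7 and 13.7 CPM at 50 nM and 14.3, 14.4 and 12.8 CPM at 250 nM. Every treated library was below every control. SGO1 fell at 50 nM by 0.46 ± 0.10 on the log2 scale (edgeR adjusted p = 0.0140), but its call was lost when control replicate 2 or 3, or 50 nM replicate 1 or 2, was left out (adjusted p 0.0536 to 0.0651).

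The checkpoint kinases themselves did not pass. TTK, which starts checkpoint signalling at unattached kinetochores, had 24.6 to 28.8 CPM in the controls and 20.0 to 23.4 CPM at 50 nM. These groups did not overlap, and the log2 fold change of -0.31 ± 0.08 lay just outside the threshold (edgeR adjusted p = 0.0525). BUB1 had a value of -0.11 ± 0.07 (edgeR adjusted p = 0.447), and CDC20 of -0.12 ± 0.08 (edgeR adjusted p = 0.500). For CDC20 the 50 nM libraries stood at 132, 112 and 145 CPM against 139 to 145 CPM in the controls, so that replicate 3 reached the control range and replicate 2 lay well under it.

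ECT2 is the exchange factor that activates RhoA at the cell equator for cytokinesis. It had 41.9, 45.7 and 44.9 CPM in the controls, 35.1, 30.6 and 34.3 CPM at 50 nM and 39.0, 38.9 and 37.2 CPM at 250 nM. As with SGO2, the 3 groups did not overlap and the 50 nM libraries were lowest. The fall at 50 nM was -0.41 ± 0.07 on the log2 scale (edgeR adjusted p = 0.00394).

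ASPM, which holds microtubule minus ends at the spindle poles, had 90.1 to 101 CPM in the controls and 79.5 to 79.9 CPM at 50 nM, and 81.9 to 89.3 CPM at 250 nM. Both treated groups were below the controls. ASPM fell by 0.27 ± 0.06 at 50 nM (edgeR adjusted p = 0.0222), and leaving out control replicate 2 or 3, or 50 nM replicate 1 or 2, took the adjusted p to 0.0572 to 0.129. The remaining 5 genes of spindle assembly, chromosome structure and cytokinesis did not pass and had log2 fold changes between -0.23 and -0.01. They were TPX2, which activates aurora A, topoisomerase TOP2A, anillin (ANLN), PRC1 and the phosphatase anchor CDCA2. PRC1 had the value nearest to 0, with 113, 99.2 and 120 CPM at 50 nM on either side of 107 to 113 CPM in the controls (95% interval of the log2 fold change -0.15 to 0.14).

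Of 9 mitotic kinesins tested, CENPE and KIF20B fell at 50 nM, and all 9 had values below 0. Among all genes tested 3.25% were called and 50.6% had values below 0. KIF2A, placed with the transport and other kinesins, had 0.06 ± 0.07. CENPE, which carries chromosomes to the spindle equator, had 63.5, 79.0 and 76.2 CPM in the controls against 55.0, 55.5 and 55.2 CPM at 50 nM and 61.0, 65.9 and 60.6 CPM at 250 nM. The 50 nM libraries were close together and below all others, while the 250 nM libraries reached into the control range. CENPE fell by 0.40 ± 0.08 (edgeR adjusted p = 0.00845), and without control replicate 3 it did not pass (adjusted p = 0.0540).

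KIF20B, a kinesin of the late spindle and midbody, had 33.4, 42.9 and 36.6 CPM in the controls and 28.5, 28.8 and 31.9 CPM at 50 nM. Its fall of 0.34 ± 0.09 had the weakest support of the 8 (edgeR adjusted p = 0.0406) and kept the call under 9 of 20 alternatives. Leaving out control replicate 2 or 3, 50 nM replicate 1 or 2, or any of the 250 nM libraries ended the call (adjusted p 0.0629 to 0.152). KIF20A, which moves passenger proteins to the midzone and was the most abundant mitotic kinesin at 38.4 FPKM in the controls, did not pass (-0.21 ± 0.07, edgeR adjusted p = 0.145). Its 50 nM libraries, at 91.6, 82.1 and 103 CPM, were all below the controls at 105 to 110 CPM, and without 50 nM replicate 3 it passed (adjusted p = 0.0165). KIF14, which acts in cytokinesis, had a value of -0.31 ± 0.09 (edgeR adjusted p = 0.0689). The values of KIF11, KIF15, KIF18A, KIF23 and KIF4A were between -0.16 and -0.04.

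CDCA8, also called borealin, belongs to the chromosomal passenger complex with the kinase AURKB and the scaffold INCENP. It had 31.3, 30.6 and 31.1 CPM in the controls, 24.9, 22.9 and 26.1 CPM at 50 nM and 28.2, 25.6 and 24.5 CPM at 250 nM, with every treated library below every control. CDCA8 fell by 0.33 ± 0.07 at 50 nM (edgeR adjusted p = 0.0224). Leaving out control replicate 1 or 3, or 50 nM replicate 1 or 2, ended the call (adjusted p 0.0557 to 0.110). The other subunits measured had values near 0, -0.05 ± 0.11 for AURKB and -0.05 ± 0.07 for INCENP, with edgeR adjusted p of 0.897 and 0.806. INCENP was the most abundant of the 3, at 19.0 FPKM in the controls. That CDCA8 differed from its partners was not tested.

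Of the 15 centromere and kinetochore genes, all tested, only CENPC fell at 50 nM. CENPC links centromeric nucleosomes to the outer kinetochore. Its levels were 16.9, 18.6 and 21.1 CPM in the controls, 14.2, 14.5 and 14.8 CPM at 50 nM and 17.1, 16.9 and 16.2 CPM at 250 nM. The 50 nM libraries were below all others. The log2 fold change was -0.38 ± 0.09 (edgeR adjusted p = 0.0266), and it did not pass without control replicate 2 or 3 or 50 nM replicate 1 or 2 (adjusted p 0.0579 to 0.153). CENPL had the lowest estimate of the role, -0.66 ± 0.27 (edgeR adjusted p = 0.235), from 1.64 to 2.15 CPM in the controls and 0.833 to 1.43 CPM at 50 nM. At these low levels its 95% interval ran from -1.23 to -0.09. The microtubule-binding NDC80 subunits NUF2 and NDC80 had values of -0.18 and -0.09, and CENPA, the histone H3 variant that marks the centromere, of -0.09. In this role CENPH, CENPN, CENPM and CENPT had positive values of 0.05 to 0.11, not past the threshold, and CENPU had -0.06 ± 0.07.

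None of the 4 mitotic kinases and cyclins passed at 50 nM, with values of -0.33 for AURKA, -0.22 for PLK1, -0.13 for CCNB1 and -0.08 for CCNB2. AURKA, the spindle pole kinase, had 40.3 to 41.8 CPM in the controls and 31.0, 28.8 and 38.1 CPM at 50 nM. Although these did not overlap, the 50 nM libraries spread widely, and the edgeR adjusted p was 0.0829. Without 50 nM replicate 3 AURKA passed (-0.46, adjusted p = 0.00701). CCNB1, the cyclin that drives entry into mitosis, had 113, 101 and 127 CPM at 50 nM against 120 to 130 CPM in the controls. The remaining division genes, CENPJ, CDCA3, CDCA7 and CDCA7L, had values of -0.27, -0.16, 0.05 and -0.09 and did not pass.

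**Figure D2:**
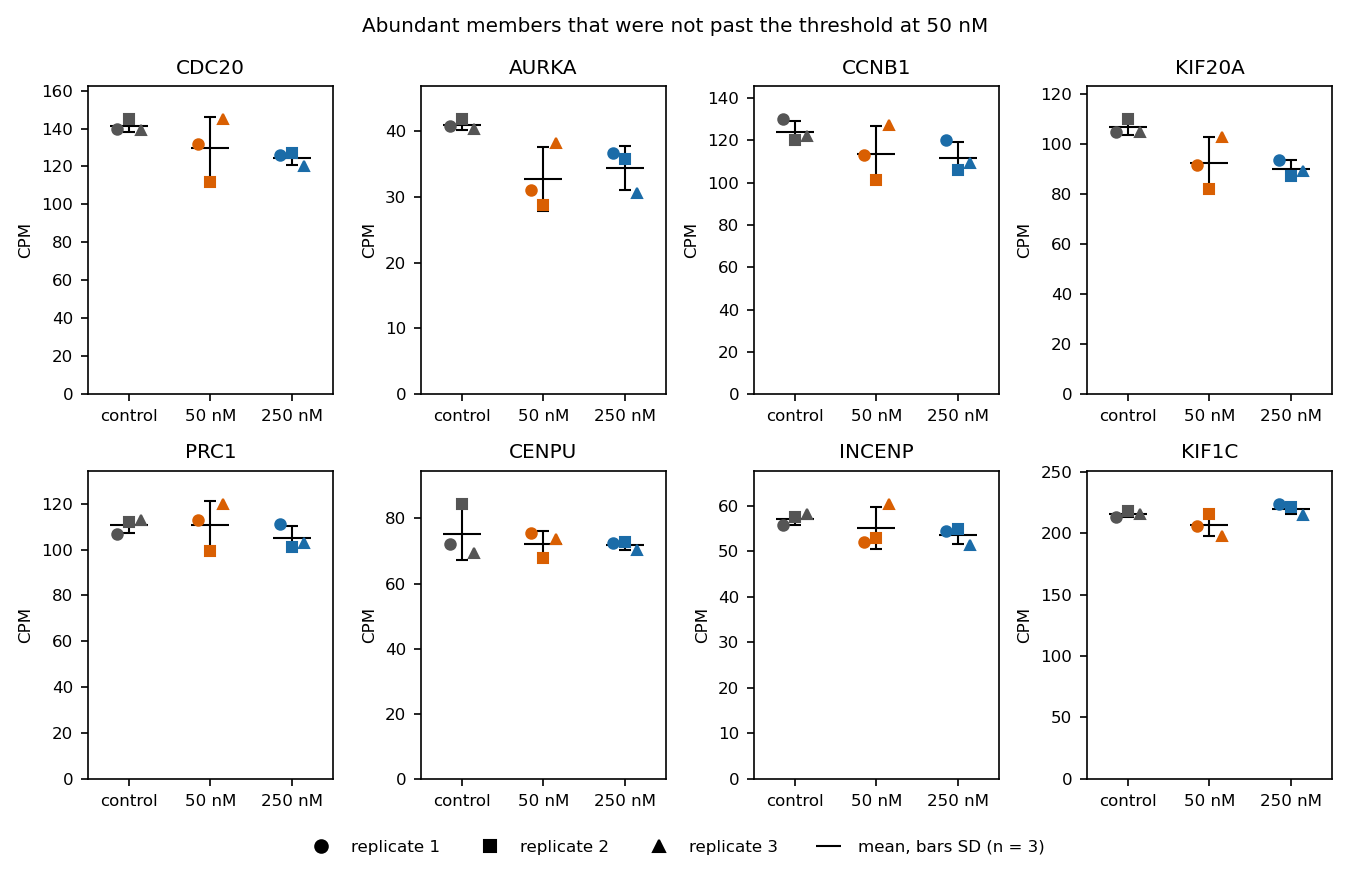
Level in each library, in CPM, of 8 abundant members that were not past the threshold at 50 nM, with mean and SD of 3 libraries; marker shape gives the replicate number. For CDC20, AURKA, CCNB1, KIF20A and PRC1 the 50 nM libraries are ordered with replicate 2 lowest and replicate 3 highest (CDC20 at 112 and 145 CPM), and KIF1C, a transport kinesin, does not share that order.

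The 50 nM libraries differed among themselves in a shared way. Of the 47 division genes, 36 (76.6%) were lowest in 50 nM replicate 2 of the 3, and 35 (74.5%) were highest in replicate 3. Over all genes tested the corresponding shares were 33.7% and 36.3%. These 2 libraries are also the ones at the ends of the second principal component. Against the control mean, the median log2 difference of the division genes was -0.10, -0.26 and -0.04 in 50 nM replicates 1, 2 and 3, and -0.11, -0.14 and -0.18 in the 250 nM libraries. In the controls it was -0.05, 0.01 and 0.02, so 50 nM replicate 3 lay within the range of the controls and the other treated libraries below it. For the 17 other kinesins it lay between -0.11 and 0.04 in treated libraries and between -0.08 and 0.05 in controls.

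**Figure D3:**
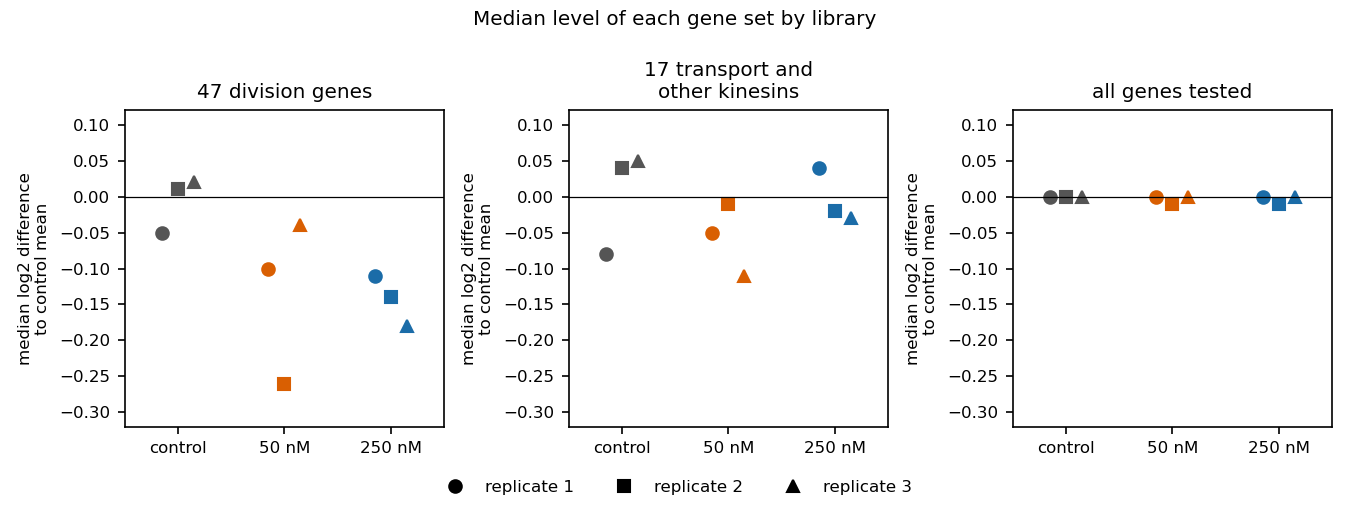
Median log2 difference to the control mean in each library, for the 47 tested division genes, the 17 tested transport and other kinesins and all 12324 genes tested; marker shape gives the replicate number. The division genes stand lowest in 50 nM replicate 2 (-0.26) and at -0.11 to -0.18 in the 250 nM libraries, while the median of all genes stays between -0.01 and 0.00.

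Counted gene by gene, 50 nM replicates 1, 2 and 3 were below every control library for 25, 41 and 17 of the 47 division genes, where 27.0%, 29.5% and 29.3% of all genes tested were. The 250 nM libraries were below every control for 23, 26 and 36 of the 47, against 23.1%, 25.7% and 24.2% of all genes. Of the 17 other kinesins, 7, 6 and 8 were below every control in 50 nM replicates 1, 2 and 3 (41.2%, 35.3% and 47.1%). In replicate 3 that share was above the 36.2% of the division genes. In the 250 nM libraries 3, 0 and 5 of the 17 were below every control. All 3 libraries of 50 nM were below the controls for 17 of the 64 members, or 26.6%, against 10.1% over all genes. For the other kinesins this held for 3 of the 17 (17.6%). All 3 libraries of 50 nM were above the controls for 0 members, against 8.88%. At an unadjusted p under 0.05, 21 members were lower at 50 nM, where 8.17% of all genes were, and 0 were higher, where 7.44% were.

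At 250 nM estradiol 0 of the 64 members passed in either direction (edgeR quasi-likelihood test), where 0.308% of all genes did. At an unadjusted p under 0.05, 17 members were lower and 1, KIF26B, was higher, against 4.71% and 3.97% of all genes. DESeq2 called 1 member, SGO1 (-0.40, adjusted p = 0.0225). The median log2 fold change of the division genes was -0.15, close to the -0.14 at 50 nM, but these comparisons share their control libraries. The 250 nM libraries lay below all controls for 17 of the 64 members and above them for 1, KIF21B, against 7.76% and 7.75% of all genes.

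All 5 genes of checkpoint and cohesion were among these 17. SGO1 had a log2 fold change of -0.40 ± 0.10 (edgeR adjusted p = 0.130), SGO2 of -0.33 ± 0.09 (0.193) and TTK of -0.27 ± 0.08 (0.261). CDC20 stood at 126, 127 and 120 CPM, under the 139 to 145 CPM of the controls, with a value of -0.18 ± 0.08 (edgeR adjusted p = 0.496). BUB1 stood at 45.8 to 48.0 CPM, under 51.0 to 53.7 CPM. Of the 4 kinases and cyclins, AURKA, PLK1 and CCNB2 were separated in the same way, with values of -0.25, -0.14 and -0.17 in that order, and so were CDCA8 and INCENP, with -0.25 and -0.09. Of the spindle and cytokinesis genes ECT2, ASPM, CDCA2 and TPX2 were separated, with values of -0.20, -0.18, -0.20 and -0.10. KIF20A was the only mitotic kinesin among the 17 (-0.24 ± 0.07, edgeR adjusted p = 0.256), and NUF2 and CENPI, with -0.18 and -0.21, were the only centromere genes.

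**Figure D4:**
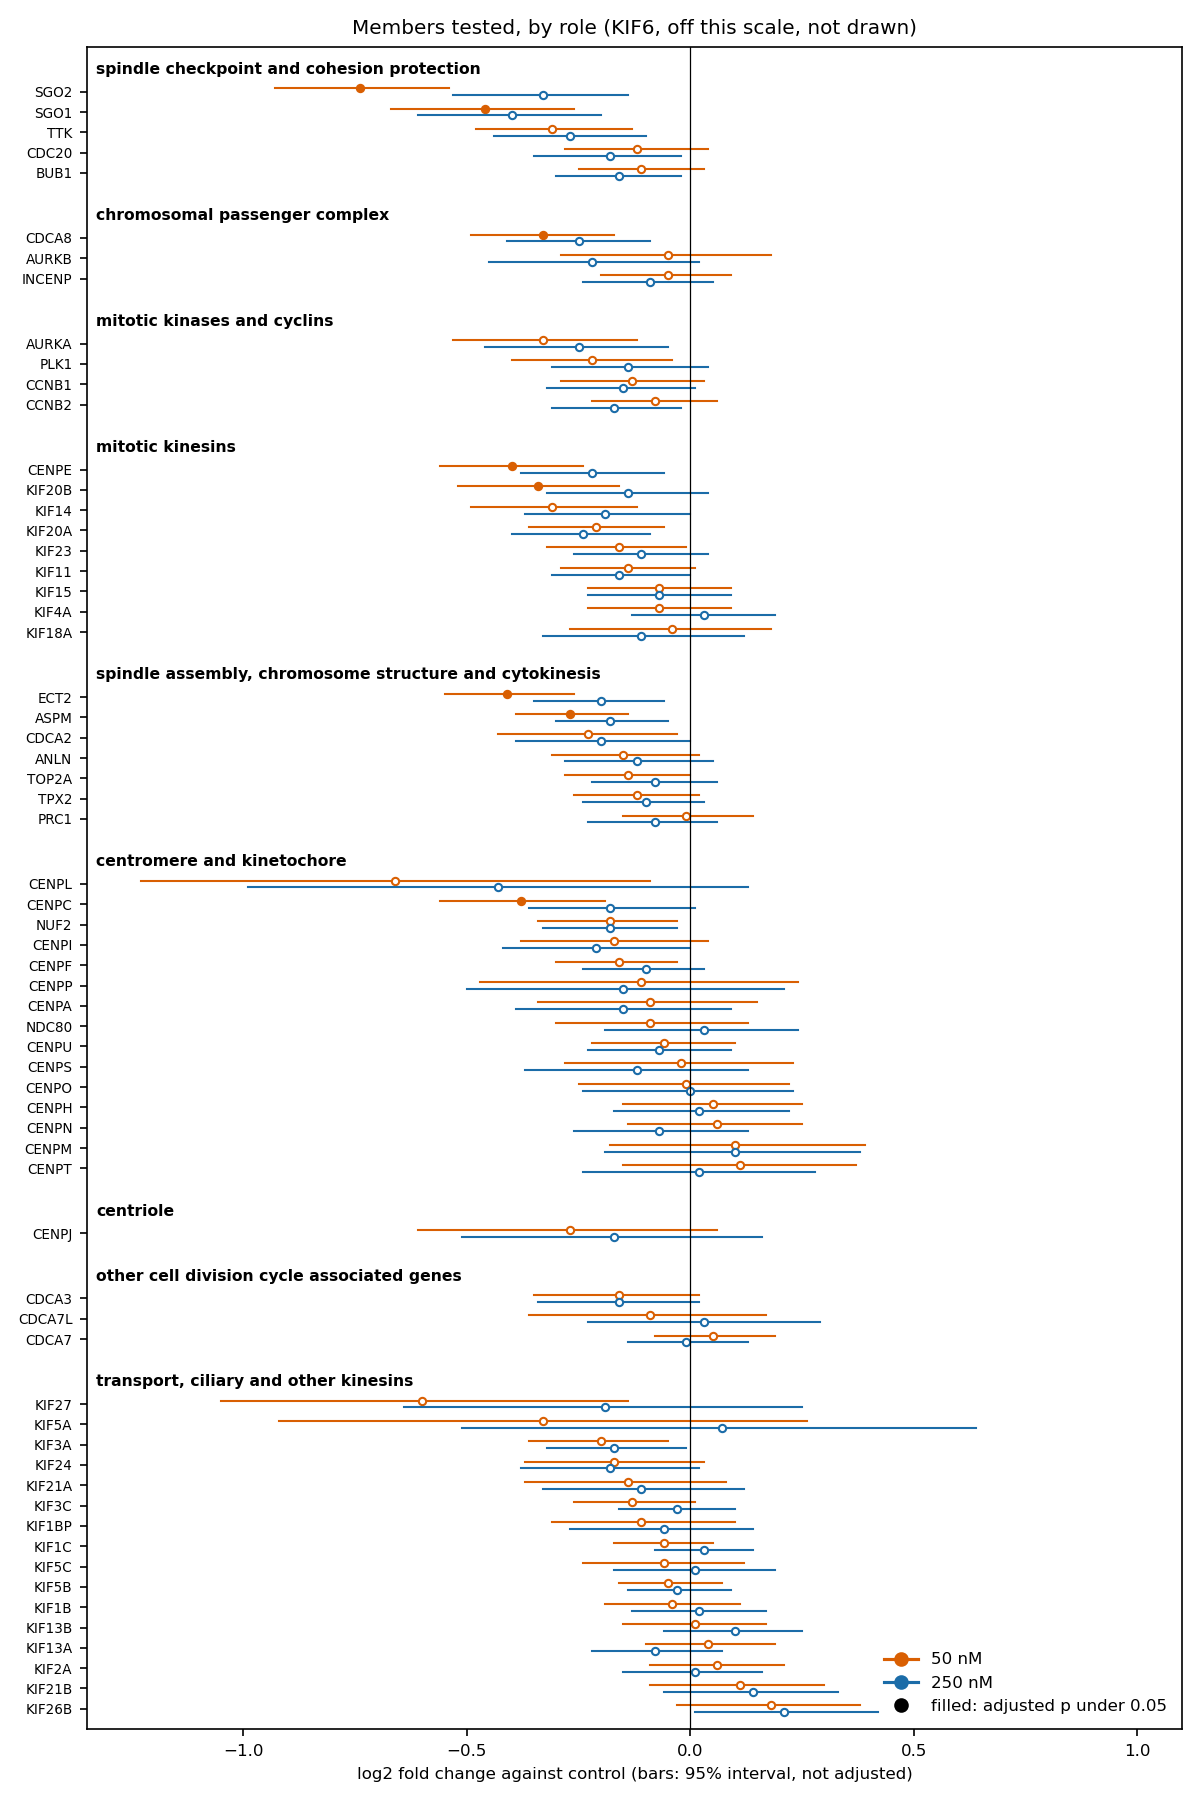
Log2 fold change of each tested member except KIF6 against control at 50 nM and 250 nM, grouped by role. The 95% intervals are not adjusted for the number of genes, and filled points passed the threshold. KIF6 (-0.75 and 0.77, not past the threshold) is off the scale and not drawn. The 8 filled points are all at 50 nM and below 0; at 250 nM the division genes run from -0.43 to 0.10 with none filled.

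Between the concentrations, 0 of the 64 members differed (edgeR quasi-likelihood test, 250 nM against 50 nM), and 0.325% of all genes did (0.187% of all genes upward). At an unadjusted p under 0.05, 5 members were higher at 250 nM and 0 lower, against 3.01% and 2.67% of all genes. The groups did not overlap for 9 members that were higher at 250 nM and 1, KIF13A, that was lower, against 5.94% and 5.57%. Of the 64 members 23 had a value below 0 (35.9%, against 51.2%). They were 20 of the 47 division genes (42.6%, median 0.01) and 3 of the 17 other kinesins (17.6%, median 0.04). The 5 that were higher at an unadjusted p under 0.05 were SGO2, ECT2, CENPE, CENPC and KIF20B, all called at 50 nM against the control; both comparisons use the same 50 nM libraries. SGO2 had the largest value of the 5, 0.40 ± 0.09 (95% interval 0.21 to 0.60, edgeR adjusted p = 0.114), and DESeq2 called it (adjusted p = 0.0179). For ECT2 the difference was 0.20 ± 0.07 (interval 0.05 to 0.35, edgeR adjusted p = 0.539). SGO1, ASPM and CDCA8 had differences of 0.06, 0.09 and 0.08, with intervals of -0.14 to 0.27, -0.04 to 0.22 and -0.08 to 0.24. A test of any difference among the 3 groups called 4 of the 64 members, SGO2 (edgeR adjusted p = 0.00132), ECT2 (0.0133), SGO1 (0.0243) and CENPE (0.0260), where 1.86% of all genes were called. This count was 1 without control replicate 3 or 50 nM replicate 2, and 8 without 50 nM replicate 3. Over all genes the 229 calls became 122, 147 and 339 without these libraries, in that order.

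The transport, ciliary and other kinesins gave 0 calls in any comparison. KIF1C, which carries cargo toward microtubule plus ends, was the most abundant member of this role at 63.7 FPKM in the controls, with 213 to 218 CPM there, 198 to 216 CPM at 50 nM and 215 to 224 CPM at 250 nM. Its 95% interval at 50 nM, -0.17 to 0.05, holds no change as large as that of SGO2 or ECT2. The heavy chain of conventional kinesin, KIF5B, had values of -0.05 ± 0.05 and -0.03 ± 0.05 at 50 and 250 nM. KIF27, a kinesin tied to cilia, had the lowest p of the role at 50 nM (-0.60 ± 0.21, edgeR adjusted p = 0.169), from 1.91 to 2.95 CPM in the controls and 1.34 to 1.87 CPM at 50 nM. KIF3A, a subunit of the motor that builds cilia, had 32.5 to 37.6 CPM in the controls and 29.4 to 31.2 CPM at 50 nM, a value of -0.20 ± 0.07 (edgeR adjusted p = 0.174). KIF6 had the widest estimates, -0.75 at 50 nM and 0.77 at 250 nM, but its counts were 0 to 31 units per library. KIF12, KIF17 and KIF19 had 0 to 31 units per library and were not tested.

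**Figure D5:**
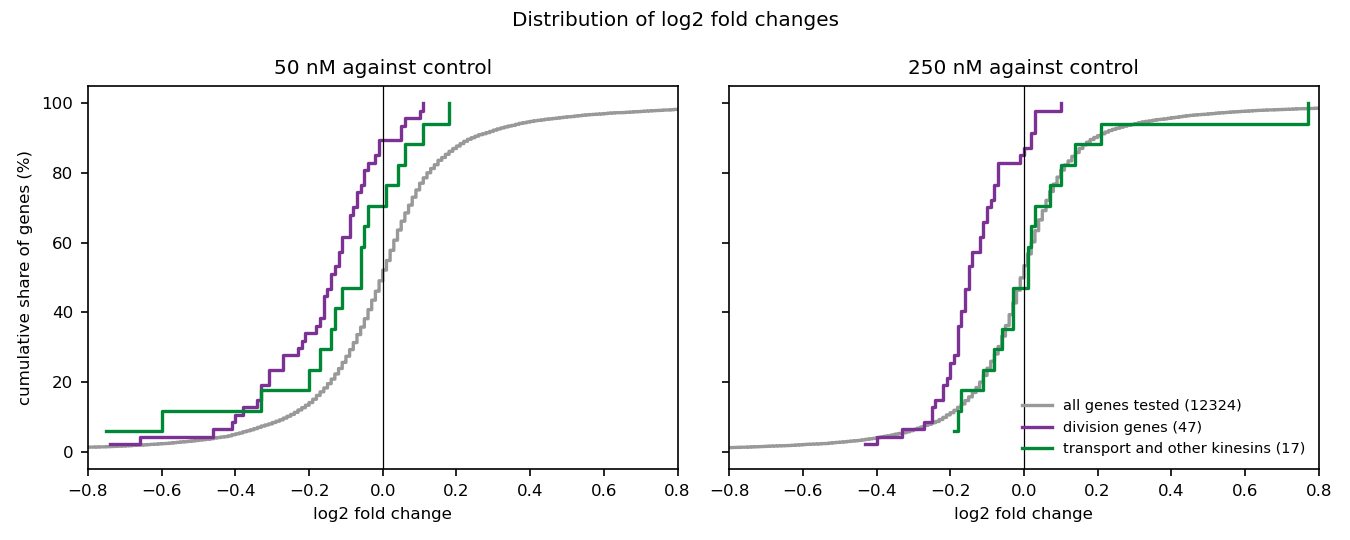
Cumulative share of genes (%) by log2 fold change against control at 50 nM (left) and 250 nM (right), for the 47 division genes, the 17 transport and other kinesins and all genes tested. The division genes are shifted to the left of all genes in both panels (89.4% and 87.2% below 0, against 50.6% and 51.8%). Of the transport and other kinesins 70.6% and 47.1% are below 0. The axis ends at ±0.8, so genes beyond it are not drawn.

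Mitotic genes outside the selection were counted in the same way. Of 122 other genes of the kinetochore, anaphase-promoting complex, cohesin and condensin, spindle, centrosome, cytokinesis and mitotic transcription, 4 fell at 50 nM and 0 rose (3.28% of those tested, near the 3.25% of all genes). At an unadjusted p under 0.05, 29 of the 122 were lower at 50 nM (23.8%, against 8.17% of all genes) and 1 was higher. At 250 nM 0 passed by edgeR, and at an unadjusted p under 0.05, 16 were lower (13.1%, against 4.71% of all genes) and 2 higher. The 4 were the condensin subunit NCAPG (-0.45 ± 0.09, edgeR adjusted p = 0.0143), the augmin subunits HAUS3 (-0.41 ± 0.09, 0.0249) and HAUS6 (-0.25 ± 0.07, 0.0477), which seed new microtubules inside the spindle, and LIN9 (-0.41 ± 0.10, 0.0335). LIN9 is a core part of the MuvB complex that, with MYBL2 and FOXM1, transcribes mitotic genes. It had 12.6 to 14.6 CPM in the controls and 9.96 to 10.7 CPM at 50 nM. FOXM1 and MYBL2 had values of -0.09 ± 0.07 and -0.03 ± 0.09 at 50 nM, and CDK1, the kinase partner of cyclin B, of -0.13 ± 0.12; none of the 3 passed (edgeR adjusted p 0.585 to 0.932). The median over the 122 genes was -0.09 at 50 nM and -0.08 at 250 nM. Of 30 genes of DNA replication and the G1/S transition, 0 passed at either concentration (edgeR), and their medians were -0.06 and -0.04. At an unadjusted p under 0.05, 4 of the 30 were lower at 50 nM (13.3%, against 8.17% of all genes) and 3 at 250 nM (10.0%, against 4.71%), with 0 higher at either.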

How the data were processed

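The submitters' processing notes list Cufflinks, Cuffdiff, TopHat2 2.1.1 and Trim Galore. Build, annotation release and counting tool: not given in the sources used here. Many genes without a symbol carry rabbit Ensembl identifiers (prefix ENSOCUG), which does not show the species of the cells. Per gene and library, the authors deposited estimated counts (expected counts, as whole numbers) and FPKM values. About 4 count units stand for 1 fragment, judged from low values piling up near multiples of 4. If counting ignored strand, overlapping and antisense genes, and close paralogs, could share counts. Groups and replicates came from the sample titles, and table columns were matched by name. Libraries of a group differed by more than sampling noise (chi-square per degree of freedom 3.08 or more), so none was merged. No genome or sequence table was used.

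All 12324 genes left by edgeR's filterByExpr (minimum count 10) were fitted on 9 libraries with edgeR 4.0.16 (R 4.3.3), quasi-likelihood test, TMM factors and Benjamini-Hochberg adjustment over all genes within each comparison. The SE is the log2 fold change divided by the square root of F. CPM values, computed here, use the TMM factors; FPKM values do not. Members and lists were chosen with earlier results of these data known. Genes are named by a rule: every member past the threshold, the most abundant and the lowest p of each role, the 3 largest changes per comparison, and called genes of the other mitotic lists; all others are named as examples chosen after their values were seen. Alternatives were DESeq2 1.42.0, RLE and upper-quartile factors, no filter, at least 5 CPM in 3 libraries, 2 groups only, a replicate block, limma 3.58.1 on log2(FPKM + 1) and log2(FPKM + 0.1), counts divided by 4 and leaving out each library. The test was also tried on simulated counts.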

Additional observations from a re-analysis of the deposited data

How the results depend on the processing

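For members called at 50 nM against control, the 8 became 5 with only the 2 groups compared and 3 with limma on log2(FPKM + 1) without a filter, and 2 to 13 when single libraries were left out; all calls stayed downward. At 250 nM against control and at 250 nM against 50 nM the count of 0 became 1 with DESeq2 in each, and stayed 0 without any single library. Members with any difference, 4 as reported, became 9 with DESeq2, 2 with limma on log2(FPKM + 1) or log2(FPKM + 0.1), 1 with limma without a filter, and 1 to 8 without single libraries. The members' median log2 fold change moved by at most about its spread between replicates (0.06) under every alternative, with ranges of -0.18 to -0.09 at 50 nM, -0.15 to -0.09 at 250 nM and -0.01 to 0.06 between the concentrations. The causes of these changes were not tested. Some of the settings had fewer samples or more genes in the fit. Over all genes, the 401 calls at 50 nM became 702 with DESeq2, 244 with only the 2 groups, 234 with unfiltered limma and 187 to 564 without single libraries. The 38 at 250 nM became 140 with DESeq2, 4 under each limma setting and 5 to 56 without single libraries. The 40 between concentrations became 99 with DESeq2, 26, 23 and 11 with limma and 21 to 50 without single libraries, and the 229 with any difference 553, 353 without a filter, 146, 151 and 81 with limma and 122 to 339. The numbers 1 to 3 do not pair the libraries by any label, and deviations of same-numbered libraries correlated by -0.03 to 0.04 over all genes; blocking on that number, 8, 0 and 0 members were called in the 3 comparisons and 4 for any difference, with medians of -0.13, -0.11 and 0.04. Depth limits the lowest members (KIF6, CENPL, KIF27, KIF5A).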
